A study of Homo sapiens with 6 samples.

Results

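The Hippo pathway genes described here are 10 genes around the coactivators YAP1 and TAZ, which WWTR1 encodes. They were measured in HT29, a line of human colon adenocarcinoma cells, on 6 arrays. The genes were chosen by symbol, as probe sets that the platform annotation maps to exactly 1 gene, with the brightest probe set kept per gene. All 10 had a probe set, 1 for each gene, among 18417 genes on the array. The study set 3 arrays of cells with a laminin α1 expression construct against 3 arrays of cells with a control construct. All cells were grown for 7 days, and the arrays of a group came from independent culture passages, per the series' design text. What drives the construct, and whether a group was 1 clone or several, is not stated in the labels. The p values of all genes measure the spread between passages, and a difference between clones is not covered by them.

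In the Hippo pathway the kinases MST1 and MST2 with their adaptor SAV1 activate the kinases LATS1 and LATS2, which phosphorylate YAP1 and TAZ and keep them out of the nucleus. In the nucleus YAP1 and TAZ bind the TEAD transcription factors and raise target genes such as CCN1, CCN2, ANKRD1, AMOTL2 and LATS2, and the last of these inhibits YAP1 and TAZ in turn. The pathway responds to cell density, matrix stiffness and adhesion, and in the intestinal epithelium YAP1 is known for its part in regeneration after injury. These steps act largely on proteins, which expression arrays do not measure.

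In the arrays labelled laminin α1, CCN2 fell 1.58-fold and LATS2 rose 1.45-fold. Both are known as target genes of YAP1. The other 7 members tested, among them the coactivators, TEAD1 and TEAD4, did not pass the test. Outside the members, TEAD2 and the TEAD cofactor VGLL1 fell, the Hippo regulators WWC3 and SAV1 rose, and the YAP1 target genes CRIM1 and MYOF fell. Of 4 TEAD factors and cofactors, 25 regulators and 15 genes of a target signature tested, 2, 23 and 13 did not pass. Over all genes tested, 2.69% rose and 2.59% fell. The calls of SAV1 and VGLL1 were lost in 6 and 5 of 16 alternatives (adjusted p up to 0.103 and 0.0939). LATS2 lay among neighbouring genes on chromosome 13 that were higher together.

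The promoters of 7 of the 10 members were found in RefSeq (build GRCh38.p14), and 4 of them are shown, those of CCN2 and LATS2, the genes that changed, and those of ANKRD1 and AMOTL2, which are known targets too. AMOTL2 did not pass the test, and ANKRD1 was below the level filter and was not tested. Each is the 250 bases before the annotated start, read 5′ to 3′ on the gene's strand, which is the minus strand for all 4. Capitals mark the core of the TEAD binding motif, GGAATG, or its reverse complement CATTCC.
CCN2, chr6:131951373-131951622: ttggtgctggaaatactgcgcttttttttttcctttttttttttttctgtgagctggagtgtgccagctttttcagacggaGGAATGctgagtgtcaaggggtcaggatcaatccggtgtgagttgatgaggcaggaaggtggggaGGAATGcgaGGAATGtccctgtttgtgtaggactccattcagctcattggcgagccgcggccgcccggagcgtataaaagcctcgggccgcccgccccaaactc
ANKRD1, chr10:90921088-90921337: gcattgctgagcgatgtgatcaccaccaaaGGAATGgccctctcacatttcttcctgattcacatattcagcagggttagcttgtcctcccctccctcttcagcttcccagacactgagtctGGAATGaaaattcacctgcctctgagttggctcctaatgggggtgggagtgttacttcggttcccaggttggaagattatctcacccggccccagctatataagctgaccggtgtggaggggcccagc
AMOTL2, chr3:134374448-134374697: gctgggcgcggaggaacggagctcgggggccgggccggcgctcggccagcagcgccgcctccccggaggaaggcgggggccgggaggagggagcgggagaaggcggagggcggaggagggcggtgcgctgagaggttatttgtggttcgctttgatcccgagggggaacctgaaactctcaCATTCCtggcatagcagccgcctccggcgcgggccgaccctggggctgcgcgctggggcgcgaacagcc
LATS2, chr13:21061587-21061836: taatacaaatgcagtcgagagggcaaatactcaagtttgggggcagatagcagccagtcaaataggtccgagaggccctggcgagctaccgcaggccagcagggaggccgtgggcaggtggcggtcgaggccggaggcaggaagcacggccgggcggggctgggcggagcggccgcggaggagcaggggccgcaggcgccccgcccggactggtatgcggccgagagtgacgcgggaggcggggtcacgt
The CCN2 window held 3 copies of the motif, which began 169, 104 and 95 bases before the start and did not overlap. The ANKRD1 window held 2 copies, 220 and 128 bases before the start, and the AMOTL2 window held 1, on the other strand, 69 bases before the start. The second annotated start of AMOTL2, the starts of LATS1 and WWTR1 and the window of LATS2 held none, and that of YAP1 held 1, 162 bases before its start. Of all 35116 windows of this length, 11.9% held at least 1 copy, 0.94% at least 2 and 0.0826% at least 3. A match of letters does not show that a TEAD factor binds there in these cells.

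Values are log2 expression, and differences are laminin α1 minus control with 95% intervals from a limma fit over 13812 genes. A gene was tested if its mean lay above log2 5.50, the 25th percentile of all genes, and it passed at a Benjamini-Hochberg adjusted p under 0.05. LAMA1, which encodes laminin α1, had values of 5.79, 5.72 and 5.71 in laminin α1 arrays and 5.71, 5.63 and 5.60 in control arrays, and did not pass (limma adjusted p = 0.535), so it does not check the labels. Arrays correlated at 0.991 to 0.998 within a group and 0.983 to 0.991 between groups. All 8 colon epithelial markers, such as EPCAM, CDH1, CDX2 and VIL1, were above the filter. Over all genes tested, 730 passed, 372 higher and 358 lower, with 407 without control replicate 2, 429 without laminin α1 replicate 2 and 1214 without laminin α1 replicate 3.

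The coactivators were measured first. YAP1, which carries the signal of the pathway into the nucleus, had values of 10.32, 10.43 and 10.41 in laminin α1 arrays and 10.40, 10.37 and 10.29 in control arrays. The groups overlapped, and the difference was 0.03 (95% interval -0.11 to 0.18, limma adjusted p = 0.863). WWTR1, the gene of TAZ, had 5.58, 5.76 and 5.76 in laminin α1 arrays and 5.77, 5.66 and 5.73 in control arrays. Its groups also overlapped, close above the filter level, at a difference of -0.01 (95% interval -0.18 to 0.15). As ratios of laminin α1 over control, the intervals ran from 0.924 to 1.13 for YAP1 and from 0.884 to 1.11 for WWTR1.

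TEAD1 and TEAD4 encode the DNA-binding partners of the coactivators. TEAD1 had 10.01, 10.12 and 10.30 in laminin α1 arrays and 10.12, 10.10 and 10.19 in control arrays. The laminin α1 arrays spread on both sides of the control arrays, with a difference of 0.01 (95% interval -0.17 to 0.19). TEAD4 had 8.43, 8.23 and 8.22 in laminin α1 arrays and 8.22, 8.24 and 8.29 in control arrays. Only laminin α1 replicate 1 lay above the control range, and the difference of 0.05 (95% interval -0.12 to 0.21) did not pass.

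LATS1 and LATS2 encode the inhibitory kinases. LATS2 had 8.36, 8.25 and 8.28 in laminin α1 arrays and 7.70, 7.71 and 7.87 in control arrays. All 3 laminin α1 arrays lay above all control arrays, and LATS2 rose by 0.54 (SE 0.07, 95% interval 0.38 to 0.70, limma adjusted p = 0.00166). In bulk arrays a change in the share of cells and a change in RNA per cell cannot be told apart. LATS1 had 8.54, 8.70 and 8.77 in laminin α1 arrays and 8.73, 8.71 and 8.68 in control arrays. Its groups overlapped, and the difference was -0.04 (95% interval -0.20 to 0.13). The difference between these kinases was not itself tested.

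AMOTL2, a scaffold of cell junctions that binds YAP1 and holds it in the cytoplasm and is also its target, had 7.39, 7.20 and 7.16 in laminin α1 arrays. Control arrays had 7.22, 7.05 and 7.13. The groups overlapped, at a difference of 0.12 (95% interval -0.06 to 0.30, limma adjusted p = 0.536). With array weights AMOTL2 passed (difference 0.15, limma adjusted p = 0.0247), the single change of a member's call among the alternatives run. That setting passed 4691 of all 13812 genes tested, against 730 in the main fit, and its estimation stopped before full convergence. With the replicate number as a block 1596 passed. Calls gained only in these 2 settings, here and below, are read with that limit.

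**Figure D1:**
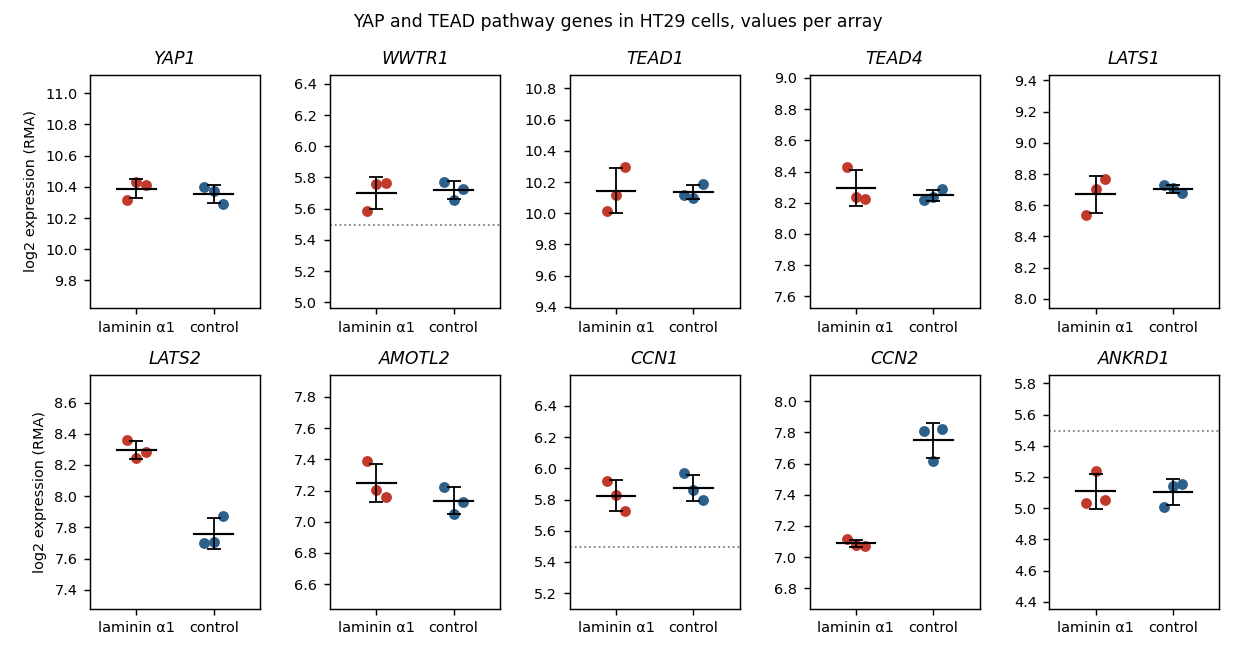
Log2 expression of the 10 members on each array, with laminin α1 arrays in red at the left and control arrays in blue at the right. Points are arrays, the wide bar is the mean and the whiskers the SD (n = 3), every panel spans the same log2 range, and the dotted line is the level filter at 5.50. CCN2 lay wholly below and LATS2 wholly above the control arrays, and the groups of the other 8 genes overlapped.

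Among the target genes, CCN2, formerly CTGF, encodes a secreted matricellular protein that binds integrins and growth factors. It had 7.11, 7.08 and 7.07 in laminin α1 arrays and 7.81, 7.62 and 7.82 in control arrays. All laminin α1 arrays lay below all control arrays, and the SD was 0.02 in laminin α1 arrays and 0.11 in control arrays. CCN2 fell by 0.66 on the log2 scale (SE 0.07, 95% interval -0.82 to -0.50, limma adjusted p = 0.000441). Its exact two-sided permutation p was 0.1, the smallest that 3 against 3 arrays allow, as it was for LATS2. By p value CCN2 ranked 127 and LATS2 203 among all genes tested.

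CCN1, formerly CYR61, is a close relative of CCN2 and like it a secreted matricellular protein. It had 5.92, 5.83 and 5.72 in laminin α1 arrays and 5.97, 5.86 and 5.80 in control arrays. The groups overlapped near the filter level, at a difference of -0.05 (95% interval -0.22 to 0.12, limma adjusted p = 0.809). ANKRD1, a nuclear ankyrin repeat protein and a commonly used readout of YAP1, was below the filter, with 5.03, 5.24 and 5.05 in laminin α1 arrays and 5.01, 5.15 and 5.16 in control arrays. In the limma fit without the filter its difference was 0.0045 (95% interval -0.17 to 0.18, adjusted p = 0.990). At levels near or below the filter a change of CCN1 or ANKRD1 may not have been detectable, since log2 differences are compressed where signal is low.

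Of the 9 members tested, 1 rose and 1 fell, beside 5.29% of all genes tested that passed in either direction, 2.69% higher and 2.59% lower. Groups did not overlap for 2 of the 9 members, beside 21.6% of all genes tested. The median difference of the 9 members was 0.0084, against -0.01 over all genes. The members were chosen with results of these data known, so the counts describe them only.

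**Figure D2:**
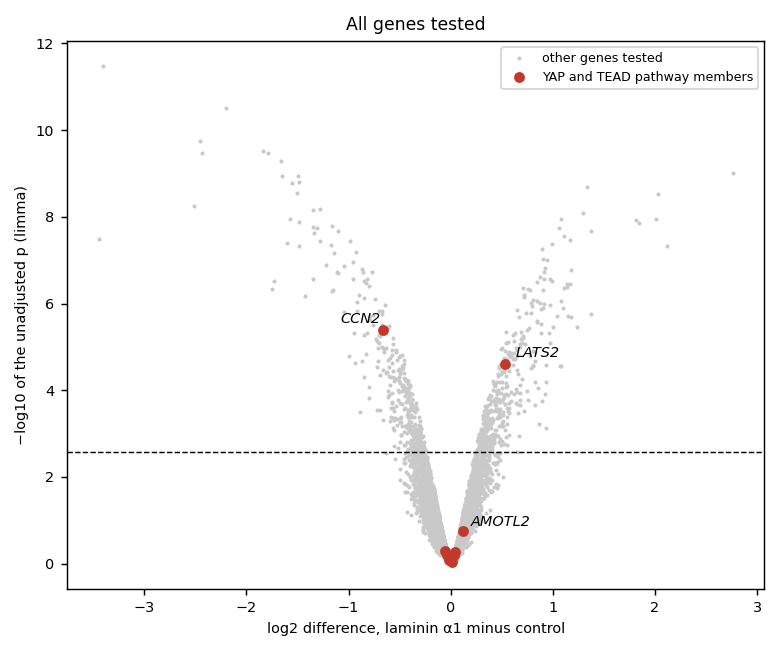
Log2 difference, laminin α1 minus control, against −log10 of the unadjusted limma p for the 13812 genes tested, with the 9 members tested in red and the other genes in grey. Genes above the dashed line passed at an adjusted p under 0.05. CCN2 lay at -0.66 and LATS2 at 0.54, and the other members lay between -0.05 and 0.12.

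The genes next to LATS2 were examined after its value had been seen. In the gene order of the RefSeq assembly GRCh38.p14, used for order only, 15 of the 20 nearest tested genes on chromosome 13, 10 on each side, rose and 0 fell. Their median difference was 0.53, against 0.54 for LATS2 itself. Over all genes tested, 5.29% passed in either direction. The neighbours on either side were XPO4, a nuclear export receptor, with a difference of 0.52, and SAP18, a subunit of a histone deacetylase complex, with 0.54. The connexin gene GJB6 had the highest, 2.03. The part of the neighbourhood in the rise of LATS2 was not tested. The labels do not say how many clones each group came from, so a difference between clones and an effect of the construct cannot be told apart here.

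Around CCN2 on chromosome 6, 5 of 20 neighbours fell and 1 rose, beside 5.29% of all genes tested that passed in either direction. The median difference of these neighbours was -0.09. Among them EPB41L2, a protein of the membrane skeleton, had a difference of -0.85 and SGK1, a kinase induced by serum and glucocorticoids, 0.85. The gene before CCN2, MED23, had -0.38 and did not pass, and the gene after it, STX7, had -0.07. Around the other 7 members tested, between 0 and 2 of 20 neighbours passed. Around WWC3, SAV1, TEAD2, VGLL1, CRIM1 and MYOF, 0 to 2 of 20 passed, too.

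**Figure D3:**
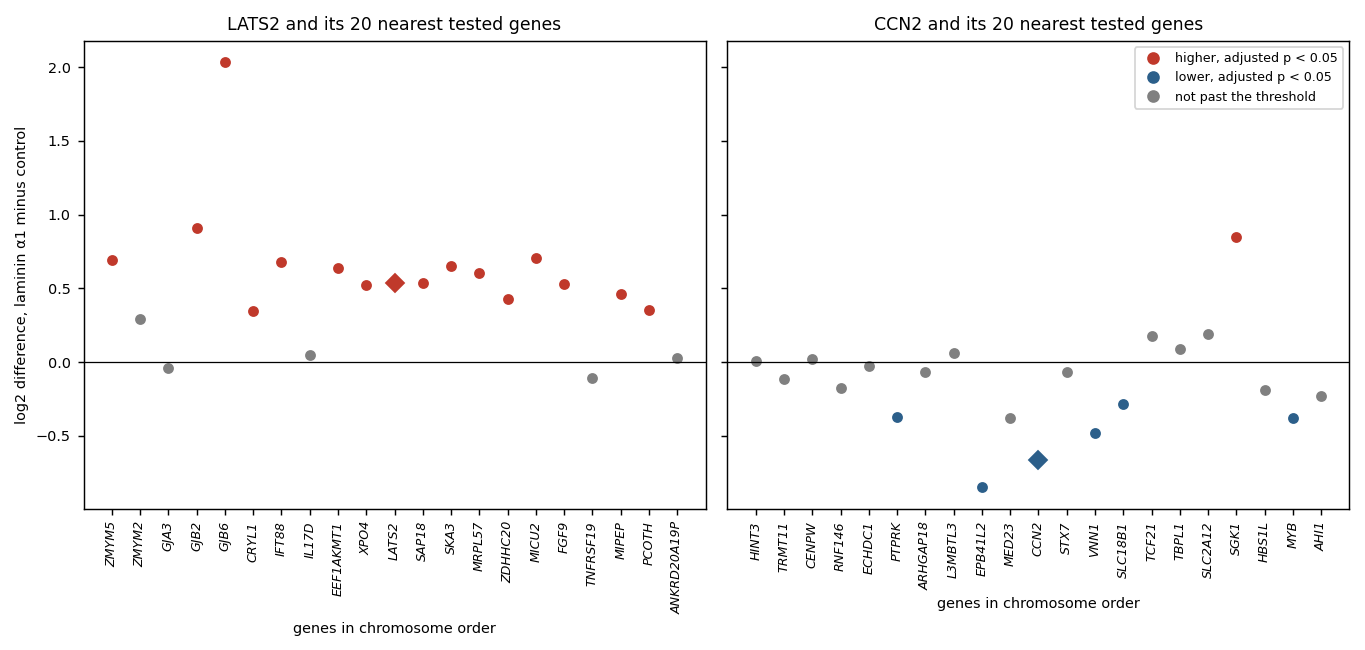
Log2 difference, laminin α1 minus control, of LATS2 (left) and CCN2 (right), drawn as diamonds, and of the 20 nearest tested genes of each in chromosome order. Red genes were higher and blue genes lower at an adjusted p under 0.05. Near LATS2, 15 of 20 genes were higher, and near CCN2 5 of 20 were lower and 1 was higher. Over all genes tested, 5.29% passed in either direction.

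Upstream regulators of the pathway were taken from a list of 32 genes. The array held 29 of them, and 25 passed the level filter. Of these 2 rose, 0 fell and 23 did not pass, beside 2.69% of all genes that rose and 2.59% that fell, with a median difference of -0.02, against -0.01 over all genes. WWC3, a relative of the scaffold KIBRA, which promotes the phosphorylation of LATS kinases, had 7.05, 6.77 and 6.89 in laminin α1 arrays and 6.37, 6.26 and 6.47 in control arrays. All laminin α1 arrays lay above all control arrays, a rise of 1.45-fold (limma adjusted p = 0.00546). SAV1, the adaptor of the MST kinases, had 9.11, 8.99 and 9.14 in laminin α1 arrays and 8.80, 8.77 and 8.71 in control arrays, a rise of 1.25-fold (limma adjusted p = 0.0229). The SAV1 groups did not overlap, but the call was lost without control replicate 1, 2 or 3 (adjusted p = 0.0581, 0.103 and 0.0867), without laminin α1 replicate 1 (adjusted p = 0.0546) and with every probe set tested (adjusted p = 0.0664). The largest differences that did not pass were -0.24 for STK3, the gene of MST2, and -0.20 for PALS1, a scaffold of apical junctions. Differences of the other regulators tested, such as NF2, STK4, MOB1A and FAT1, lay between -0.17 and 0.13. Array weights brought PALS1 (adjusted p = 0.0148) and STK3 (adjusted p = 0.00762) past the threshold, as the replicate number as a block did STK3 (adjusted p = 0.0257).

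The other TEAD factors and their vestigial-like cofactors had 2 of 4 tested genes lower and 0 higher, with a median of -0.25. Over all genes tested, 2.59% fell and 2.69% rose. TEAD2, a further TEAD factor, had 8.63, 8.61 and 8.48 in laminin α1 arrays and 9.06, 9.03 and 8.99 in control arrays. The groups were apart by more than the spread of either, and TEAD2 fell 1.37-fold (limma adjusted p = 0.00284). VGLL1, a cofactor that binds TEAD factors at the surface that YAP1 uses, had 9.79, 9.61 and 9.51 in laminin α1 arrays and 10.16, 10.03 and 9.97 in control arrays. These groups did not overlap, and VGLL1 fell 1.33-fold (limma adjusted p = 0.0205). That call was lost without control replicate 1 or 2 (adjusted p = 0.0909 and 0.0792), without laminin α1 replicate 2 (adjusted p = 0.0939) and with every probe set tested (adjusted p = 0.0804). TEAD3 had a difference of 0.05 and VGLL4, a repressor of TEAD factors, -0.08. VGLL2 and VGLL3 were below the filter.

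A published signature of YAP1 and TAZ target genes in tumours holds 17 genes besides the members. Of the 15 tested, 2 fell, 0 rose and 13 did not pass, with a median difference of -0.04, against 2.59% of all genes that fell. CRIM1, a membrane protein that binds growth factors of the BMP family, had 7.49, 7.67 and 7.59 in laminin α1 arrays and 8.40, 8.39 and 8.46 in control arrays. The groups were clearly apart, and CRIM1 fell 1.78-fold (limma adjusted p = 6.79e-05). MYOF, a ferlin of membrane repair, had 9.31, 9.24 and 9.33 in laminin α1 arrays and 9.78, 9.75 and 9.66 in control arrays. It fell 1.35-fold with no overlap (limma adjusted p = 0.00334). PTPN14, a phosphatase that also restrains YAP1, had a difference of 0.25 and DOCK5, an activator of RAC, -0.17, and neither passed (limma adjusted p = 0.0668 and 0.201). PTPN14 passed with the replicate number as a block (adjusted p = 0.0262) and with array weights (adjusted p = 0.00159), and DOCK5 with array weights (adjusted p = 0.00144). AXL, F3, IGFBP3, NT5E and TGFB2, among the better known genes of the signature, did not pass, with differences between -0.14 and 0.07.

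**Figure D4:**
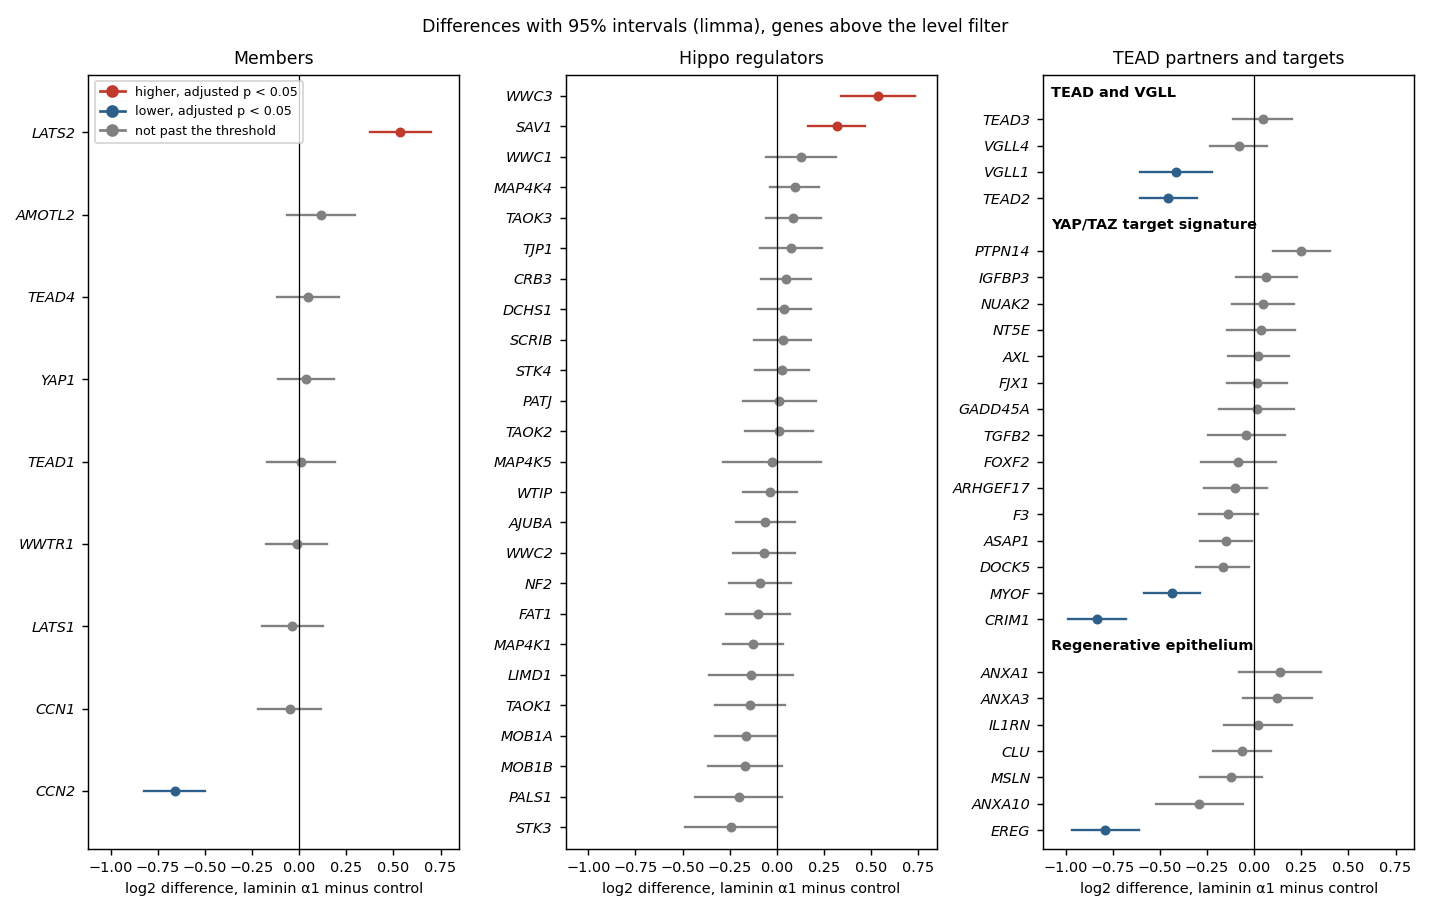
Log2 differences, laminin α1 minus control, with 95% intervals from the limma fit, for members (left), upstream regulators (middle) and TEAD partners, target genes and genes of regenerating epithelium (right), where genes above the level filter are drawn. Red is higher and blue lower at an adjusted p under 0.05, and grey did not pass. LATS2, WWC3 and SAV1 were higher, and CCN2, TEAD2, VGLL1, MYOF, CRIM1 and EREG were lower.

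Genes of regenerating or fetal-like intestinal epithelium, linked to YAP1 mostly in mouse, had 1 of 7 tested genes lower and 0 higher. Their median was -0.07, and 2.59% of all genes tested fell. The 1 lower gene was EREG, a ligand of the EGF receptor. It had 9.30, 9.48 and 9.56 in laminin α1 arrays and 10.22, 10.30 and 10.19 in control arrays. The groups were apart, a fall of 1.73-fold (limma adjusted p = 0.000235). ANXA10 and ANXA1, members of the annexin family, had differences of -0.29 and 0.14 and did not pass. ANXA10 passed with the replicate number as a block (adjusted p = 0.0179) and with array weights (adjusted p = 0.00356), as ANXA1 did with array weights (adjusted p = 0.0273).

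Of the other CCN family genes, 0 of 3 tested passed, beside 5.29% of all genes tested that passed in either direction. Differences were -0.07 for CCN3, -0.05 for CCN4 and -0.09 for CCN5. CCN2 is known to respond also to TGF-beta through SMAD factors and to actin dynamics through SRF. Of 7 SMAD target genes tested 0 passed, beside the same 5.29% of all genes, with a median of 0.05. PMEPA1, a feedback inhibitor of TGF-beta signalling, had the largest difference, 0.16, ahead of SMAD7 with 0.08. PMEPA1 passed with array weights (adjusted p = 0.00321). Of 10 SRF and actin target genes 1 fell, beside 2.59% of all genes tested that fell. It was the tropomyosin gene TPM1, with 8.68, 8.65 and 8.64 in laminin α1 arrays and 9.30, 9.28 and 9.18 in control arrays. Its groups were apart, a fall of 1.52-fold (limma adjusted p = 0.000365), while the list's median was 0.05. CNN2, a calponin, with 0.21 and TAGLN, a smooth muscle actin-binding protein, with -0.20 did not pass, and both did with the replicate number as a block (adjusted p = 0.0407 and 0.0490) and with array weights (adjusted p = 0.00649 and 0.00128).

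Fibroblasts and endothelial cells are rich in CCN1 and CCN2, so their markers were read beside the fall of CCN2. Of 10 fibroblast markers 5 were below the filter, among them DCN, LUM, PDGFRA and VIM. Of the 5 tested 0 passed, beside 5.29% of all genes tested that passed in either direction. COL1A1 had a difference of 0.06 and THY1 0.08. The mean level of all 10 fibroblast markers per array lay between 5.30 and 5.37 in laminin α1 arrays and between 5.24 and 5.34 in control arrays. COL1A1 alone had a mean of 7.37 over all arrays. Of 6 endothelial markers PECAM1, VWF, KDR and TEK were below the filter. The mean level of all 6 per array lay between 5.70 and 5.79 in laminin α1 arrays and between 5.64 and 5.69 in control arrays. Of the 2 endothelial markers tested 1 rose, beside 2.69% of all genes tested that rose. It was ESAM, a junction protein also named for endothelium, at 1.37-fold (limma adjusted p = 0.0104), while CDH5 had -0.04. The ESAM call was lost without control replicate 1 (adjusted p = 0.0527), without laminin α1 replicate 2 (adjusted p = 0.0631) and with every probe set tested (adjusted p = 0.0503). Colon epithelial markers had 2 of 8 lower, beside 2.59% of all genes tested that fell. KRT20 fell 1.28-fold and CEACAM5, whose close relatives may share probes with it, fell 2.24-fold, while EPCAM had -0.12 and KRT18 0.07. KRT20 did not pass without control replicate 2 (adjusted p = 0.0628) or without laminin α1 replicate 2 (adjusted p = 0.0599).

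The 5 genes whose values over the 6 arrays were most like those of CCN2, by Pearson correlation, were KIAA1549, DTWD2, MTCL1, PNRC1 and RETNLB, with r between 0.991 and 0.998. These points fall into the 2 groups of arrays, so r mainly reflects a shared difference between groups and is given as a description. RETNLB, a peptide secreted by goblet cells, had 6.76, 6.77 and 6.74 in laminin α1 arrays and 8.26, 8.16 and 8.34 in control arrays, a fall of 2.82-fold (limma adjusted p = 1.59e-06). DTWD2, MTCL1 and KIAA1549 fell 1.63-fold, 1.39-fold and 1.39-fold. PNRC1, a nuclear receptor coactivator, did not pass, with a difference of -0.16, except with array weights (adjusted p = 0.0140). Among the members, r with CCN2 was -0.93 for LATS2 and lay between -0.45 and 0.36 for the others.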

How the data were processed

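Total RNA of 6 cultures was measured on 1 array each, 3 per group. The deposited values are log2 expression per probe set, for which the submitters' processing notes name RMA and Affymetrix Expression Console 1.1. RMA equalizes the distributions of arrays, so a change of all genes together cannot be seen. The values were used without further normalization. The platform annotation gave exactly 1 symbol for 19460 of 33297 probe sets. Genes with a mean above the 25th percentile entered a linear model in limma 3.58.1 (R 4.3.3), with eBayes and no covariates, and p values were adjusted over all 13812 genes tested by the Benjamini-Hochberg method at 0.05. The number of arrays limits precision, and the median SE of a difference was 0.0754. The fit was also run on simulated data with independent noise for each gene and array. That setting cannot show how the fit behaves where arrays deviate together.

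The genes and lists were chosen with earlier results of these data known. Named were all members, of each list up to 6 genes past the threshold by smallest p and up to 2 not past it with the largest difference, and the 5 genes most like CCN2. Genes outside that rule are examples chosen after their values were seen, as was the comparison with neighbouring genes. Some genes of the lists are not reported here. Alternatives were other filters, probe set rules, normalizations, variance models, the replicate number as a block, each array left out in turn, and an adjusted p under 0.01. Promoter sequences were read from RefSeq, build GRCh38.p14.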

Additional observations from a re-analysis of the deposited data

How the results depend on the processing

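CCN2 stayed lower past the threshold under all 16 alternatives, with differences from -0.73 to -0.56 and adjusted p up to 0.00460, and LATS2 stayed higher, from 0.50 to 0.59 with adjusted p up to 0.0148. The count of members higher was 2 with array weights and 1 in the other alternatives. The number of genes past the threshold was 4691 with array weights, whose estimation stopped before full convergence, 1596 with the replicate number as a block, 393 at an adjusted p under 0.01, and 407 to 1214 with 1 array left out. Same-numbered arrays deviated together at correlations of 0.390, 0.0216 and 0.530. Laminin α1 replicate 1 with control replicate 3 had -0.435, and laminin α1 replicate 3 with control replicate 1 had -0.487. Control replicate 2 correlated better with laminin α1 replicate 1 (0.144) than with its own number. Arrays of replicates 1 and 3 thus correlated best with their own number, and those of replicate 2 did not. Deviations were taken from the mean of each group of 3 arrays, so these correlations depend on each other and are not separate matches. No label says that a number marks a shared passage, so the main fit did not pair the arrays. The sign of small differences turned for WWTR1 (0.0016 with repeated quantile normalization, 0.0811 with array weights, -0.0457 to 0.0449 with 1 array left out), TEAD1 (-0.0021 with repeated quantile normalization, -0.0692 to 0.0736 with 1 array left out), TEAD4 (-0.0200 to 0.0826), LATS1 (-0.0853 to 0.0295) and SMAD7 (-0.0125 to 0.140), the last 3 with 1 array left out. None of these passed in any alternative.

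With array weights 4691 of all 13812 genes tested passed, and the list counts are read beside that. They were 9 of 25 upstream regulators, 7 of 15 signature genes, 4 of 7 regenerative genes and 1 of 7 SMAD targets. SRF targets numbered 4 of 10, colon markers 4 of 8 and fibroblast markers 1 of 5. With the replicate block, where 1596 of all genes tested passed, 2 regenerative genes and 3 SRF targets did. Upstream regulators numbered 1 with the filter at the 50th percentile, which leaves out WWC3, with every probe set tested and at an adjusted p under 0.01. The TEAD list counted 1 and the endothelial list 0 with every probe set tested and at an adjusted p under 0.01. With 1 array left out the counts were 1 to 2 for upstream regulators, the TEAD list and colon markers, and 0 to 1 for endothelial markers. Where not stated, the cause was not tested. Genes near the level filter, CCN1, WWTR1 and ANKRD1, have little signal to show a difference.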
